A study of Homo sapiens with 12 samples.

Results

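Integrins and laminins, the adhesion receptors of the cell surface and a main family of their matrix ligands, were followed as 34 genes of the 17958 that the arrays measured by a probe set with a single gene symbol. They were taken by symbol alone, as every gene named ITGA, ITGB or LAM that had such a probe set, and comprise 24 integrin subunits (16 alpha and 8 beta) and 10 laminin chains (4 alpha, 4 beta and 2 gamma). Each member had 1 probe set. A further 3 probe sets that share a symbol of the family with another gene were left out.

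RNA came from the EGFP-carrying human breast cancer line 231BR, which was derived from MDA-MB-231 and homes to the brain, so all groups are of 1 cell line. The cells received vehicle or 10 nM estradiol, alone or in culture with mouse astrocytes, and after 24 h of co-culture the human cells were sorted. There are 4 groups of 3 arrays, called vehicle alone and estradiol alone where no astrocytes were present, and vehicle co-culture and estradiol co-culture where they were. The title of the series puts the question of how estrogen reaches 231BR cells through astrocytes that have its receptor. Within each group, values below are given in the order of replicates 1, 2 and 3. All are deposited log2 signals, and a difference between groups is a log2 change with its standard error (SE).

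An integrin is a pair of an alpha and a beta subunit that spans the membrane, binds matrix proteins outside and couples to the actin cytoskeleton inside through adaptors such as talin and kindlin. A laminin is a trimer of an alpha, a beta and a gamma chain, which assembles into the basement membrane. In the brain, laminins lie mainly in the basement membrane around blood vessels, where both endothelial cells and astrocytes contribute chains, and tumour cells that enter the brain often grow along that surface. The alpha subunits ITGA3, ITGA6 and ITGA7 bind laminin, with ITGB1 as the usual partner, and ITGA6 also pairs with ITGB4 in hemidesmosomes, the anchors that tie the basement membrane to keratin filaments. The subunits encoded by ITGAV and ITGA5 recognise the RGD motif of fibronectin, vitronectin and other proteins, and the one encoded by ITGA2 binds collagen.

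The promoter windows of the 4 members that fell with astrocytes under estradiol are shown first, because these genes include the alpha, beta and gamma chain of 1 laminin trimer. Each is the 250 bases before the gene's start on RefSeq GRCh38.p14, written 5′ to 3′ on the gene's strand, and capitals mark each match to the GC box GGGCGG on either strand. LAMA4 lies at chr6:112254568-112254817 (minus strand), LAMB1 at chr7:108003162-108003411 (minus strand), LAMC1 at chr1:183023170-183023419 (plus strand) and ITGAV at chr2:186589806-186590055 (plus strand), the first of its listed starts.
LAMA4: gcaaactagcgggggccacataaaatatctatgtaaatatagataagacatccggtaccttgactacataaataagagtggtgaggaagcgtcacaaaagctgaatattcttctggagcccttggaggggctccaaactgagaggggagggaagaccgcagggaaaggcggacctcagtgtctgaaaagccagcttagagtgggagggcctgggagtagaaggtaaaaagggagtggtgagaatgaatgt
LAMB1: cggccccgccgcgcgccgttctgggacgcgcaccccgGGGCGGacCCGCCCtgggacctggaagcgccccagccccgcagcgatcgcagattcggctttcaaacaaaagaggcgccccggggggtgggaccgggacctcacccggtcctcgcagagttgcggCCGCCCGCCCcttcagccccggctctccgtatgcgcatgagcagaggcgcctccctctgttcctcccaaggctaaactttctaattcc
LAMC1: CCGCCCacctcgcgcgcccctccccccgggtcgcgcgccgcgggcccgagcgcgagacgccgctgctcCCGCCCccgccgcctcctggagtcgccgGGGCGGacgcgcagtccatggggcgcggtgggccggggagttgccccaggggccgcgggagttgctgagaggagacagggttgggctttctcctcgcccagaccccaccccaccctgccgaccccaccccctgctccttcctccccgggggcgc
ITGAV: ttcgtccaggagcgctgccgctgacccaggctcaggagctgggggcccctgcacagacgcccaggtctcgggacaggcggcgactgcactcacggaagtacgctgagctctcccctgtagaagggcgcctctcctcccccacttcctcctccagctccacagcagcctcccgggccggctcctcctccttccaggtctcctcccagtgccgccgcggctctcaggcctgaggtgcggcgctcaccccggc
The LAMB1 window held 4 GC boxes, of which a pair overlaps, and the LAMC1 window held 3, while the windows of LAMA4 and ITGAV held none. The GC content was 48.4% for LAMA4, 70.4% for LAMB1, 79.6% for LAMC1 and 70.8% for ITGAV, against a median of 58.0% over all windows. The letters were searched on both strands of the windows of 23 members, since RefSeq's table gave none for ITGA3, ITGA7, ITGA9, ITGAD, ITGAL, ITGAX, ITGB2, ITGB3, ITGB4, LAMA1 and LAMC3. Several members have more than 1 start, which makes 30 windows. A GC box was found in 16 of these 30 windows (13 of the 23 members) and in 42.6% of all 35116 windows. The AP-1 letters TGANTCA were in 1 of the 30 windows, that of LAMB3 (6.57% of all windows), the TATA box TATAAA in 1 each of ITGA6 and ITGB1 (10.7%), and the E-box CACGTG in 1 of ITGA6 (6.35%). CCAAT was in 5 of the windows (32.0%), an NF-kB motif in 7 (9.96%), and the cAMP response element TGACGTCA in none (1.65%). A match describes these letters only.

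Signals were less spread out on the arrays with astrocytes. The SD over an array's probe sets was 2.04 to 2.22 in the 6 arrays without astrocytes and 1.62 to 2.10 in the 6 with them, lowest in replicate 2 of estradiol co-culture (1.62) and of vehicle co-culture (1.82). The medians of the arrays were 4.35 to 4.77. Markers of the cell line were high, such as VIM (mean 10.4), CAV1 (10.3) and ANXA1 (10.9), and the estrogen receptor gene ESR1 was low, at 3.93. S100A4, also listed as a marker of the line, was at 4.99. Of the 5 genes listed as low in the line, ESR1 among them, EPCAM had the highest mean, 5.54. The 8 astrocyte markers averaged 4.34 to 4.63 per array in vehicle alone, 4.29 to 4.46 in estradiol alone, 4.50 to 4.67 in vehicle co-culture and 4.57 to 5.15 in estradiol co-culture. Of these markers 5 rose and 2 fell in the mean of the comparisons under vehicle and under estradiol, where 24.5% of all genes rose and 23.0% of all genes fell. GFAP had a mean of 4.98 without astrocytes and 5.92 with them, while the brightest, SLC1A3 and GJA1, went from 6.51 to 5.56 and from 6.26 to 5.61. The part of mouse RNA in the values was not tested.

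The first question is what culture with astrocytes did to these genes in the tumour cells. Under estradiol, 6 of the 34 members (17.6%) changed, where 13.2% of all genes did. ITGAV, LAMA4, LAMB1 and LAMC1 fell, and ITGA9 and ITGB6 rose, against 8.15% of all genes that fell and 5.03% that rose. Under vehicle no member passed (0.0557% of all genes did), although 9 of the 34 had an unadjusted p under 0.05 in limma, as did 5073 of the 17958 genes. The astrocyte comparisons under vehicle and under estradiol use different arrays, and their mean was taken as a further comparison of 6 arrays against 6, added after the data were seen. In that mean 18 of 34 members (52.9%) changed, against 47.5% of all genes. It put 9 members higher (24.5% of all genes were higher) and 9 lower (23.0% of all genes). These shares are near those of all genes. In these comparisons fewer cells of a kind and less RNA per cell cannot be told apart, as the samples are bulk RNA.

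The counts moved with single arrays. Under estradiol, no member passed without vehicle alone replicate 1 or 2, estradiol alone replicate 1, 2 or 3, or estradiol co-culture replicate 2 or 3. For the arrays without astrocytes among these, 0.0167% to 0.0724% of all genes passed. Leaving out vehicle alone replicate 3 gave 3 members, beside 8.61% of all genes. There were 2 without vehicle co-culture replicate 3 and 20 without estradiol co-culture replicate 1. Under vehicle, 5 members passed without vehicle co-culture replicate 1, 1 without estradiol co-culture replicate 1 and 11 without estradiol co-culture replicate 2. Without vehicle co-culture replicate 1, 9.08% of all genes passed there. In the mean of both treatments, 9 to 24 members passed. There were 9 without vehicle alone replicate 1, 10 without vehicle alone replicate 2, estradiol alone replicate 1 or vehicle co-culture replicate 2, and 11 without estradiol alone replicate 3 or vehicle co-culture replicate 3, against 18 with every array kept. Of all genes 26.6% passed without vehicle alone replicate 1, 28.5% without its replicate 2, 27.7% without estradiol alone replicate 1 and 32.1% without its replicate 3. Shares of all genes are not given here for the other arrays left out.

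**Figure D1:**
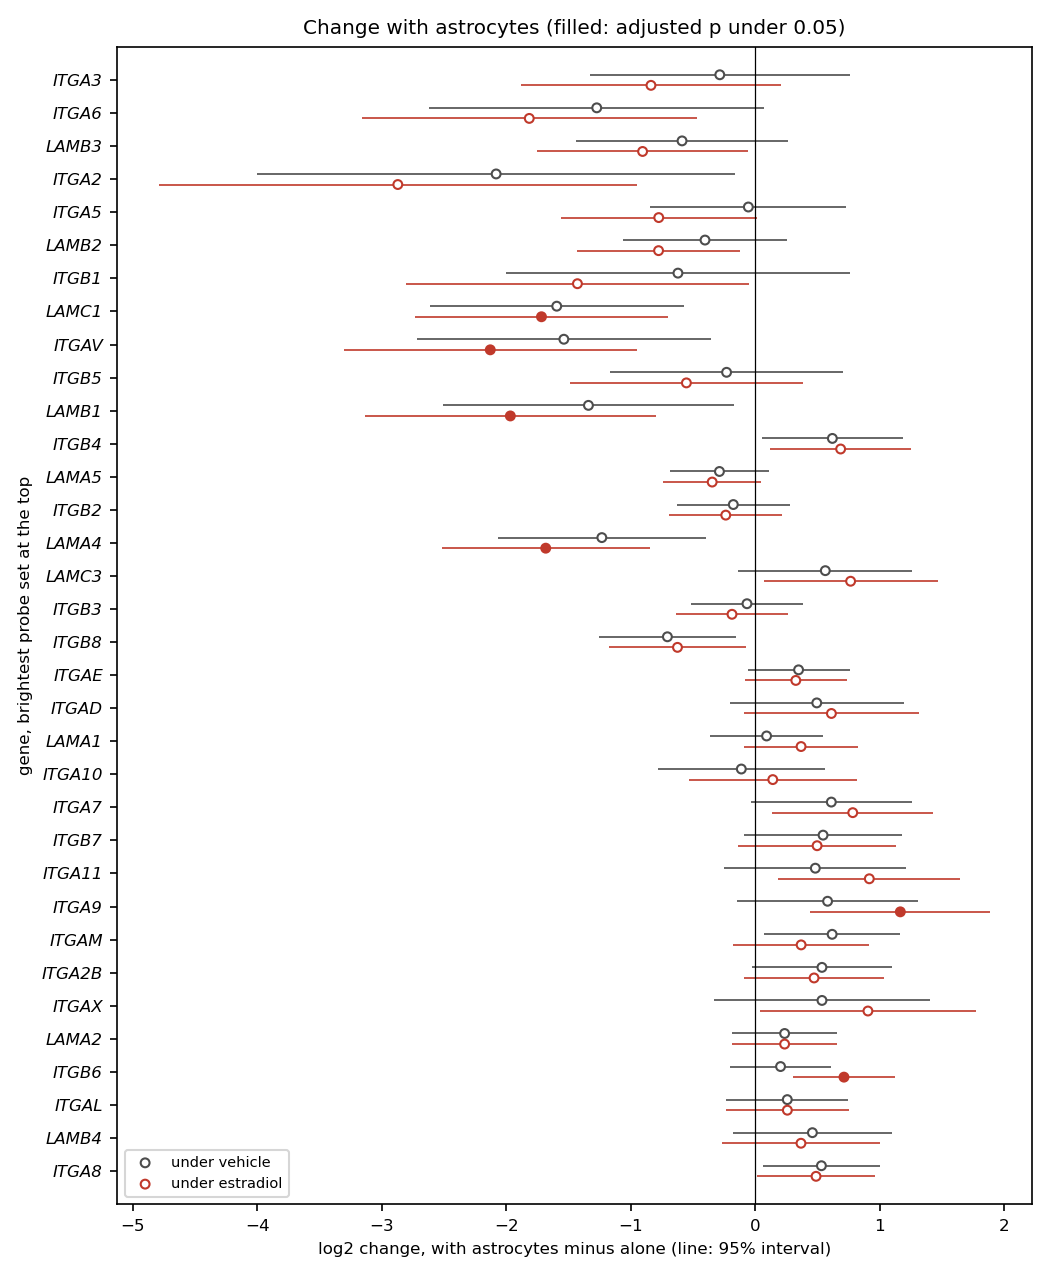
Each member's log2 change with astrocytes under vehicle (grey) and under estradiol (red), ordered by mean signal, with the 95% interval from limma as a line and adjusted p under 0.05 as a filled point. The filled points are ITGAV, LAMA4, LAMB1 and LAMC1 on the left and ITGA9 and ITGB6 on the right, all under estradiol.

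Among the laminin genes, the chains that form the trimer of LAMA4, LAMB1 and LAMC1, typical of vessel basement membranes, fell together. LAMC1, the gamma chain of most laminins, was at 7.92, 7.73 and 7.69 in vehicle alone, 7.80, 7.80 and 7.85 in estradiol alone, 7.24, 5.64 and 5.67 in vehicle co-culture, and 6.85, 5.08 and 6.36 in estradiol co-culture. All 6 arrays with astrocytes lay below all 6 without them. LAMC1 fell by 1.72 (SE 0.47, adjusted p = 0.0417 in limma), 3.29-fold, under estradiol. Under vehicle its change was −1.60 (SE 0.47, adjusted p = 0.0952), the smallest adjusted p of any member there.

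LAMB1, a beta chain of many tissues, was at 7.76, 7.77 and 7.52 in vehicle alone, 7.79, 7.74 and 7.72 in estradiol alone, 7.47, 5.68 and 5.88 in vehicle co-culture, and 6.81, 4.55 and 5.995 in estradiol co-culture. Here too the 6 arrays with astrocytes lay below the other 6, with replicate 1 of each astrocyte group nearest to them. LAMB1 fell by 1.97 (SE 0.54, adjusted p = 0.0417), 3.91-fold, under estradiol, and its change under vehicle was −1.34 (SE 0.54, adjusted p = 0.144). LAMA4, the alpha chain of vessel and muscle laminins, was at 6.56, 6.50 and 5.98 in vehicle alone, 6.62, 6.44 and 6.51 in estradiol alone, 6.05, 4.75 and 4.54 in vehicle co-culture, and 5.45, 4.47 and 4.59 in estradiol co-culture. Its estradiol groups did not overlap, while replicate 1 of vehicle co-culture lay above replicate 3 of vehicle alone. LAMA4 fell by 1.68 (SE 0.38, adjusted p = 0.0351), 3.21-fold, under estradiol, with −1.23 (SE 0.38, adjusted p = 0.101) under vehicle.

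LAMB3, the beta chain of the epithelial laminin that hemidesmosomes bind, was at 8.998, 9.08 and 8.95 in vehicle alone, 8.99, 8.85 and 9.12 in estradiol alone, 8.90, 7.77 and 8.60 in vehicle co-culture, and 8.60, 7.08 and 8.56 in estradiol co-culture. Replicate 2 of each astrocyte group was the lowest. The groups did not overlap within either treatment, but no change passed, at −0.59 (adjusted p = 0.304) under vehicle and −0.91 (adjusted p = 0.0987) under estradiol. LAMB2, the beta chain of synapses and kidney filters, was at 7.38, 7.50 and 7.25 in vehicle alone, 7.64, 7.24 and 7.43 in estradiol alone, 7.27, 6.60 and 7.05 in vehicle co-culture, and 7.23, 5.97 and 6.78 in estradiol co-culture. Its arrays overlapped under vehicle, and the changes were −0.40 (adjusted p = 0.352) and −0.78 (adjusted p = 0.0787). LAMB2 and LAMB3 fell in the mean of both treatments, by 0.59 (adjusted p = 0.0397) and 0.75 (adjusted p = 0.0434), and each held in 4 of the 12 fits that left out an array.

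The remaining 5 laminin chains did not pass in either treatment. LAMA5, the most widespread laminin alpha chain of adult tissue, had −0.29 (SE 0.18) under vehicle and −0.35 (SE 0.18) under estradiol, where its 3 arrays with astrocytes (6.27, 6.24 and 6.45) lay below the 3 without (6.65, 6.76 and 6.60). LAMA1, the chain of embryonic basement membranes, and LAMA2, the chain of muscle and peripheral nerve, had changes of 0.37 and 0.23 under estradiol, both at low signal. LAMB4 and LAMC3 had 0.37 and 0.77 under estradiol. LAMC3, a gamma chain also found outside basement membranes, was at 4.37, 4.54 and 5.14 in vehicle alone, 4.42, 4.73 and 4.73 in estradiol alone, 4.84, 5.41 and 5.48 in vehicle co-culture, and 4.91, 6.07 and 5.20 in estradiol co-culture. Its groups overlapped under vehicle and not under estradiol, and it rose by 0.66 (SE 0.23, adjusted p = 0.0336) in the mean of both treatments.

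**Figure D2:**
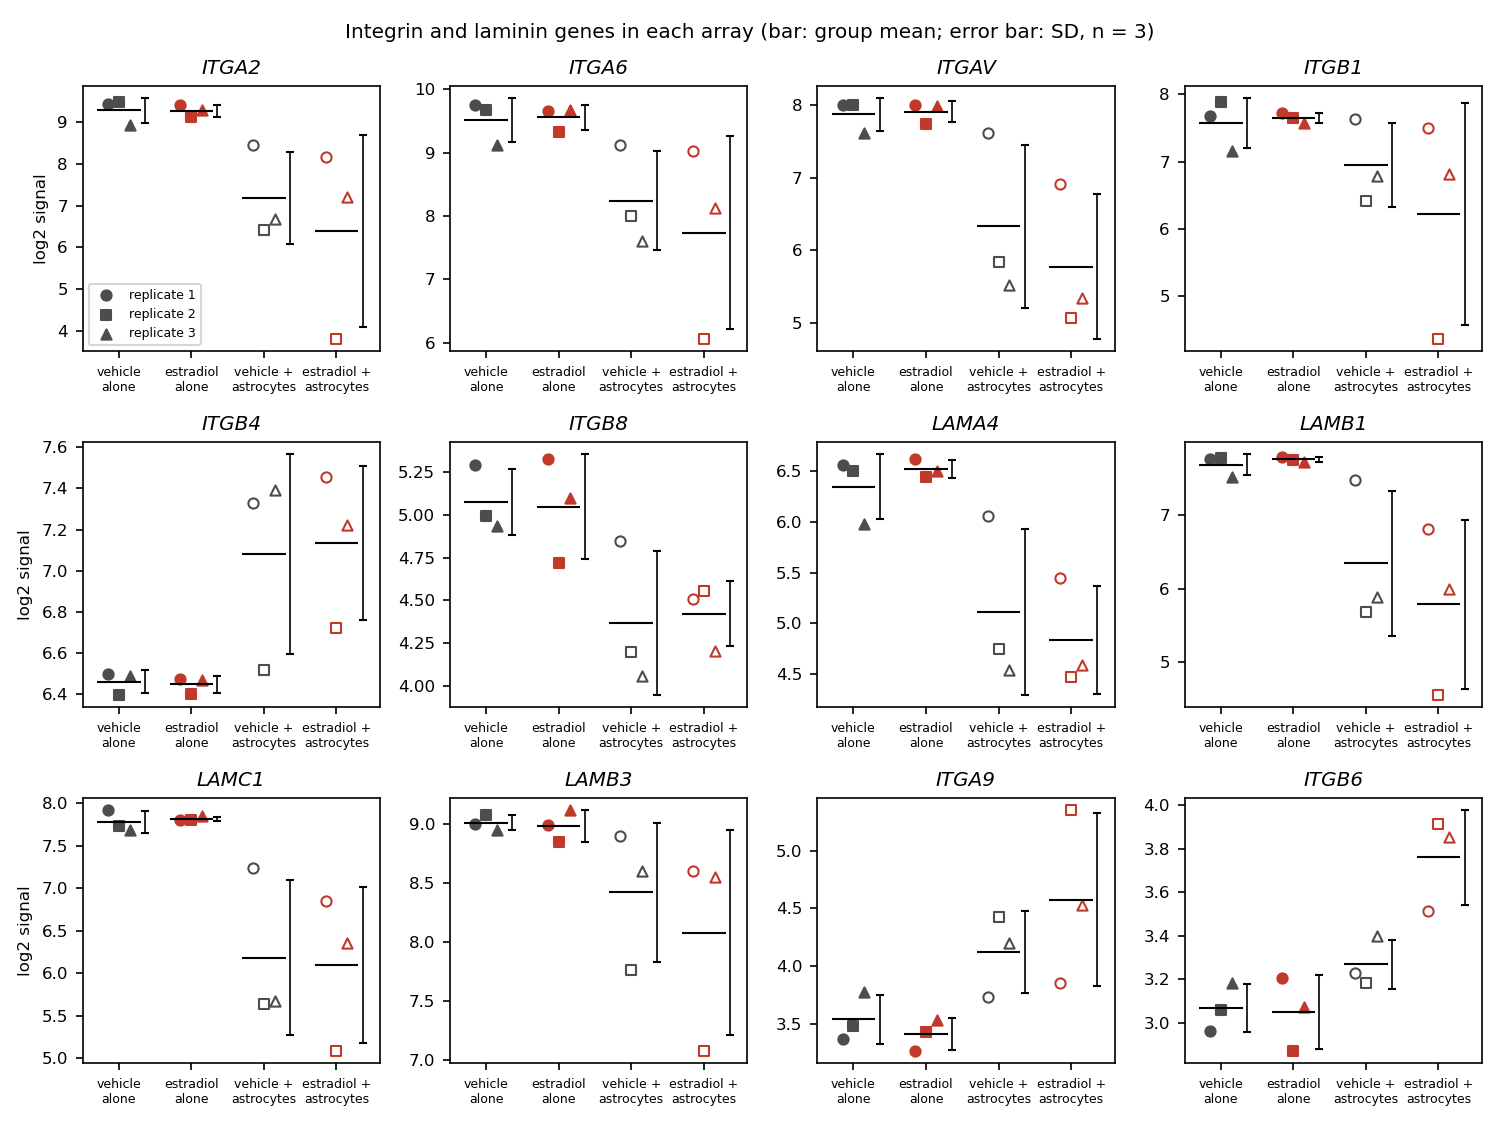
The log2 signal of 12 members in each array, by group, with the group mean as a bar and the SD (n = 3) beside it. Replicate 2 of estradiol co-culture (open red square) is the lowest point for ITGA2, ITGA6, ITGB1, LAMB1 and LAMC1, and ITGB4 is higher in all 6 arrays with astrocytes than in the 6 without.

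Of the 5 laminin-binding integrin genes, none passed within a treatment. ITGA6, whose product pairs with ITGB1 or ITGB4, was at 9.75, 9.67 and 9.12 in vehicle alone, 9.66, 9.33 and 9.68 in estradiol alone, 9.12, 8.005 and 7.60 in vehicle co-culture, and 9.03, 6.06 and 8.13 in estradiol co-culture. Every array with astrocytes was below every array without, by the narrowest of margins in replicate 1 under vehicle. The change was −1.27 (SE 0.62, adjusted p = 0.192) under vehicle and −1.82 (SE 0.62, adjusted p = 0.0616) under estradiol. In the mean of both treatments ITGA6 fell by 1.55 (SE 0.44, adjusted p = 0.0173), and it did so in each of the 12 fits that left out an array. With the SD of each array in the model that change was −0.19 (adjusted p = 0.656) and did not pass.

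ITGB4, the hemidesmosome subunit with a long cytoplasmic tail, went the other way and was singled out after its values were seen. It was at 6.50, 6.40 and 6.49 in vehicle alone, 6.47, 6.40 and 6.47 in estradiol alone, 7.33, 6.52 and 7.39 in vehicle co-culture, and 7.45, 6.72 and 7.22 in estradiol co-culture. The 6 arrays with astrocytes were above the other 6, with replicate 2 of each astrocyte group closest to them. Its change was 0.62 (SE 0.26, adjusted p = 0.154) under vehicle and 0.69 (SE 0.26, adjusted p = 0.0756) under estradiol. ITGB4 rose by 0.65 (SE 0.18, adjusted p = 0.0171), 1.57-fold, in the mean of both treatments and in all 12 fits that left out an array. Among the 14 members in the third of genes with the highest mean signal it was the only one with a positive change, in each treatment. Of all 5986 genes in that range of signal, 24.8% had a positive change under vehicle and 17.6% under estradiol. In the mean of both treatments 6.47% of these 5986 genes rose with an adjusted p under 0.05, and 38.4% fell.

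ITGB1, the common partner of laminin, collagen and fibronectin receptors, was at 7.68, 7.88 and 7.16 in vehicle alone, 7.72, 7.65 and 7.57 in estradiol alone, 7.64, 6.42 and 6.79 in vehicle co-culture, and 7.49, 4.35 and 6.81 in estradiol co-culture. The value of 4.35 stood far below the other 11 arrays. The change was −0.62 (SE 0.63, adjusted p = 0.484) under vehicle and −1.43 (SE 0.63, adjusted p = 0.105) under estradiol, and it did not pass in the mean either (−1.03, adjusted p = 0.0742). ITGA3, a laminin receptor of epithelia, was at 9.28, 9.29 and 9.15 in vehicle alone, 9.28, 9.22 and 9.20 in estradiol alone, 9.11, 8.57 and 9.18 in vehicle co-culture, and 9.18, 6.90 and 9.10 in estradiol co-culture. In ITGA3 only replicate 2 of estradiol co-culture departed by more than 1 from the rest, and the changes were −0.29 (adjusted p = 0.672) and −0.84 (adjusted p = 0.179). ITGA7, a laminin receptor of muscle, was at 3.64, 3.62 and 3.96 in vehicle alone, 3.72, 3.72 and 4.09 in estradiol alone, 3.85, 4.63 and 4.56 in vehicle co-culture, and 4.08, 5.17 and 4.62 in estradiol co-culture. Its groups overlapped in each treatment through replicate 1 with astrocytes and replicate 3 without. ITGA7 had 0.61 and 0.78 and rose by 0.70 (SE 0.21, adjusted p = 0.0218) in the mean of both treatments.

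The collagen receptor gene ITGA2 had the most negative change of all members. It was at 9.41, 9.46 and 8.93 in vehicle alone, 9.39, 9.11 and 9.28 in estradiol alone, 8.44, 6.43 and 6.68 in vehicle co-culture, and 8.15, 3.81 and 7.20 in estradiol co-culture. No array with astrocytes reached any array without, and the arrays with astrocytes were themselves widely spread. The change was −2.08 (SE 0.88, adjusted p = 0.156) under vehicle and −2.87 (SE 0.88, adjusted p = 0.0507) under estradiol, just short of the threshold. In the mean of both treatments ITGA2 fell by 2.48 (SE 0.62, adjusted p = 0.0118), 5.57-fold. With the SD of each array in the model it had −0.46 (adjusted p = 0.316), 1.38-fold, and did not pass.

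ITGA11, a collagen receptor of fibroblasts, was at 3.36, 3.51 and 4.31 in vehicle alone, 3.38, 3.62 and 3.61 in estradiol alone, 3.90, 4.35 and 4.38 in vehicle co-culture, and 3.88, 5.15 and 4.33 in estradiol co-culture. Its groups overlapped under vehicle through replicate 3 of vehicle alone and did not under estradiol. The changes were 0.48 (adjusted p = 0.325) and 0.92 (adjusted p = 0.0711), and in the mean of both treatments it rose by 0.70 (SE 0.24, adjusted p = 0.0327). ITGA10, a collagen receptor of cartilage, had −0.11 (SE 0.31) and 0.14 (SE 0.31).

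Of the 8 members whose receptors bind RGD motifs, ITGAV fell and ITGB6 rose with astrocytes under estradiol. ITGAV, the alpha subunit of vitronectin receptors, was at 7.99, 8.002 and 7.61 in vehicle alone, 7.99, 7.74 and 7.98 in estradiol alone, 7.61, 5.85 and 5.53 in vehicle co-culture, and 6.92, 5.06 and 5.35 in estradiol co-culture. Replicate 1 of vehicle co-culture stood at the level of replicate 3 of vehicle alone, and the other 5 arrays with astrocytes were below all 6 without. ITGAV fell by 2.13 (SE 0.54, adjusted p = 0.0380), 4.38-fold, under estradiol, with −1.54 (SE 0.54, adjusted p = 0.118) under vehicle.

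The beta partners of ITGAV are listed next, and their differences from ITGAV were not tested. ITGB5, a vitronectin receptor subunit, was at 7.26, 7.18 and 6.96 in vehicle alone, 7.21, 6.99 and 7.17 in estradiol alone, 7.38, 6.45 and 6.88 in vehicle co-culture, and 7.43, 5.38 and 6.88 in estradiol co-culture. Its groups overlapped in each treatment, and replicate 1 of each astrocyte group was above every array without astrocytes. The changes were −0.23 (SE 0.43, adjusted p = 0.703) and −0.55 (SE 0.43, adjusted p = 0.301). ITGB3, the partner of ITGAV and of ITGA2B on platelets, had −0.07 (SE 0.21) and −0.19 (SE 0.21).

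ITGB6, the beta subunit of an epithelial receptor that activates latent TGF-beta, was at 2.96, 3.06 and 3.18 in vehicle alone, 3.21, 2.87 and 3.07 in estradiol alone, 3.23, 3.18 and 3.40 in vehicle co-culture, and 3.51, 3.92 and 3.85 in estradiol co-culture. The 3 arrays of estradiol co-culture were above the other 9. ITGB6 rose by 0.71 (SE 0.19, adjusted p = 0.0401), 1.64-fold, under estradiol, and its change under vehicle was 0.20 (SE 0.19, adjusted p = 0.445). The difference between these changes was 0.51 (SE 0.26, unadjusted p = 0.0789, adjusted p = 1.00) in limma. All its signals are low on these arrays.

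ITGB8, which also presents TGF-beta and is known from astrocytes, was named after its values were seen. It was at 5.29, 4.996 and 4.93 in vehicle alone, 5.32, 4.72 and 5.10 in estradiol alone, 4.85, 4.20 and 4.06 in vehicle co-culture, and 4.51, 4.55 and 4.20 in estradiol co-culture. The groups did not overlap within a treatment. The changes were −0.71 (SE 0.25, adjusted p = 0.121) and −0.63 (SE 0.25, adjusted p = 0.0854), and in the mean of both treatments ITGB8 fell by 0.67 (SE 0.18, adjusted p = 0.0144).

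ITGA5, the fibronectin receptor subunit, was at 7.89, 7.87 and 7.53 in vehicle alone, 8.13, 7.82 and 7.92 in estradiol alone, 7.96, 7.36 and 7.80 in vehicle co-culture, and 7.92, 6.22 and 7.41 in estradiol co-culture. Its groups overlapped in each treatment, with changes of −0.06 (SE 0.36, adjusted p = 0.915) and −0.78 (SE 0.36, adjusted p = 0.117). ITGA8, a receptor of smooth muscle and kidney, was at 2.35, 2.29 and 2.49 in vehicle alone, 2.44, 2.67 and 2.48 in estradiol alone, 2.71, 3.15 and 2.86 in vehicle co-culture, and 2.64, 3.34 and 3.08 in estradiol co-culture. The arrays of ITGA8 overlapped under estradiol and not under vehicle, and it rose by 0.51 (SE 0.15, adjusted p = 0.0214) in the mean of both treatments. ITGA2B, the platelet fibrinogen receptor subunit, was at 3.37, 3.58 and 3.597 in vehicle alone, 3.27, 3.55 and 3.58 in estradiol alone, 3.89, 3.95 and 4.31 in vehicle co-culture, and 3.58, 4.53 and 3.70 in estradiol co-culture. The groups were apart under vehicle and barely so under estradiol, and ITGA2B rose by 0.50 (SE 0.18, adjusted p = 0.0401) in that mean.

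ITGA9, whose receptor binds tenascin and other matrix proteins, was at 3.37, 3.48 and 3.78 in vehicle alone, 3.27, 3.44 and 3.54 in estradiol alone, 3.74, 4.43 and 4.21 in vehicle co-culture, and 3.85, 5.35 and 4.53 in estradiol co-culture. Replicate 2 of estradiol co-culture was the highest array, the mirror of its place among the bright members, and replicate 1 the lowest of its group. ITGA9 rose by 1.16 (SE 0.33, adjusted p = 0.0446), 2.24-fold, under estradiol, with 0.58 (SE 0.33, adjusted p = 0.248) under vehicle. Without replicate 2 of estradiol co-culture its change was the lowest of those with an array left out, 0.78.

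The 7 integrin genes of leukocytes (ITGAD, ITGAE, ITGAL, ITGAM, ITGAX, ITGB2 and ITGB7) passed in neither treatment. ITGAE, whose receptor binds E-cadherin, was at 4.01, 4.03 and 4.41 in vehicle alone, 4.32, 4.19 and 4.31 in estradiol alone, 4.42, 4.56 and 4.52 in vehicle co-culture, and 4.45, 4.83 and 4.52 in estradiol co-culture. All arrays with astrocytes were above all without, narrowly at the nearest point, and the changes were 0.35 (SE 0.19, adjusted p = 0.228) and 0.32 (SE 0.19, adjusted p = 0.184). ITGAM, the complement receptor subunit of microglia and macrophages, was at 3.48, 3.46 and 3.67 in vehicle alone, 3.46, 3.61 and 3.88 in estradiol alone, 4.09, 4.17 and 4.20 in vehicle co-culture, and 3.54, 4.57 and 3.94 in estradiol co-culture. Its groups overlapped under estradiol and not under vehicle. ITGAM had 0.62 (adjusted p = 0.146) and 0.37 (adjusted p = 0.245) and rose by 0.49 (SE 0.18, adjusted p = 0.0392) in the mean of both treatments. ITGAX, its neighbour on chromosome 16, had 0.54 and 0.90, and ITGB2, their shared partner, had −0.18 and −0.24. Of 10 microglia and leukocyte markers 9 were measured, and 4 of these rose in the mean of both treatments, where 24.5% of all genes rose. Their mean per array was 4.43 to 4.77 in vehicle alone, 4.50 to 4.64 in estradiol alone, 4.86 to 5.18 in vehicle co-culture and 4.82 to 5.56 in estradiol co-culture. LAPTM5 and CD68 had the highest means of them, 8.99 and 8.30. With astrocytes these 2 went from 9.20 to 8.78 and from 8.47 to 8.13, and neither passed. PTPRC, which defines leukocytes, had the lowest mean of the 9, at 2.66. The part of microglia and leukocytes in the values of ITGAM and the other leukocyte integrins was not tested.

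Across members the change followed the signal. Of the 14 members in the third of genes with the lowest mean signal over the 12 arrays, 13 had a positive change under vehicle and all 14 under estradiol, and of the 14 in the third with the highest, 13 had a negative change in each treatment. All genes showed a like pattern. Of all 5986 genes in that lowest range of signal, 83.8% had a positive change under vehicle and 87.4% under estradiol. Of all 5986 genes in the highest range, 24.8% and 17.6% had a positive change, in the same order. Over the 34 members the change correlated with the mean signal without astrocytes. The values were r = −0.781 (rho = −0.736) under vehicle and r = −0.846 (rho = −0.808) under estradiol. Over all 17958 genes the values were r = −0.565 (rho = −0.605) and r = −0.671 (rho = −0.697). These are descriptions across genes, which are not independent replicates, and the signal without astrocytes enters both axes. The median change of the members was 0.02 under vehicle and 0.19 under estradiol, beside 0.06 and 0.07 for all genes.

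**Figure D3:**
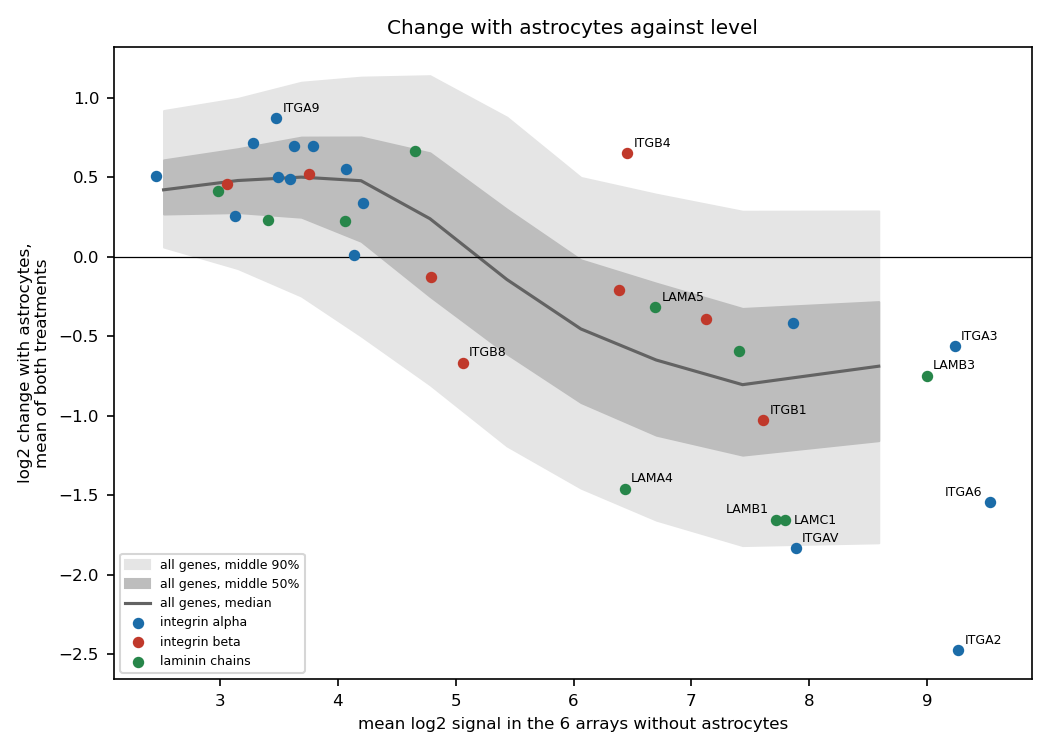
Log2 change with astrocytes, as the mean of both treatments, against the mean log2 signal in the 6 arrays without astrocytes, for each member (points) and for all genes (grey bands hold the middle 50% and 90% of genes in each of 10 bins of signal). ITGB4 lies above the 90% band and ITGAV just below it, while LAMA4, LAMB1 and LAMC1 lie within it. ITGA8 lies at a signal before its left end, and ITGA2, ITGA3, ITGA6 and LAMB3 lie at signals beyond its right end.

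The SD of an array ran from 1.62 to 2.10 with astrocytes and from 2.04 to 2.22 without. Its part in a change and that of the astrocytes can therefore not be fully told apart. Since the range of signal differed between arrays, the SD of each array was also entered as a covariate. With it, ITGAV, LAMA4, LAMB1 and LAMC1 kept negative changes under estradiol of −1.10, −1.02, −0.70 and −0.68, with adjusted p of 0.189, 0.112, 0.233 and 0.243, and ITGA9 and ITGB6 had 0.37 (adjusted p = 0.243) and 0.57 (adjusted p = 0.104). So none of the 6 calls remained. ITGB4 rose by 1.15 (SE 0.21, adjusted p = 0.0217) under estradiol, the only member called, where 2.61% of all genes were. Under vehicle ITGB4 rose by 0.97 (SE 0.19, adjusted p = 0.0197), with ITGA5 (0.63, adjusted p = 0.0303) and ITGB5 (0.60, adjusted p = 0.0482), where 6.49% of all genes were called. The signs of ITGA5 and ITGB5 under vehicle, −0.06 and −0.23 without the covariate, were thus reversed. In the mean of both treatments ITGB4 and ITGB5 rose and LAMA4 fell by 0.87 (SE 0.27, adjusted p = 0.0456), where 14.4% of all genes were called. After quantile normalization of the deposited values ITGB4 was again the only member called under estradiol (1.27, adjusted p = 0.0269). Of the changes called in the mean of both treatments, ITGB4 kept its direction and its call in both of these settings, as did LAMA4. Of the others that fell in that mean, ITGAV (−0.93), ITGB8 (−0.54), LAMB1 (−0.53) and LAMC1 (−0.74) did not pass with the covariate (adjusted p = 0.102, 0.106, 0.175 and 0.0654), nor did LAMB2 and LAMB3, whose signs turned (0.020 and 0.060). After quantile normalization 7 of the 9 that fell kept their call, and LAMB2 and LAMB3 did not. The other 8 members that rose in that mean had changes from 0.02 to 0.33 with the covariate and from 0.11 to 0.80 after quantile normalization, and none of these passed. Without the covariate, the calls of ITGA2B and ITGAM held in 4 of the 12 fits that left out an array. Those of ITGA11 and LAMC3 held in 5, ITGA7 and ITGA8 in 7, ITGB6 in 11 and ITGA9 in all 12. Over all 34 members, the covariate turned the sign of 13 changes under vehicle and 14 under estradiol.

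**Figure D4:**
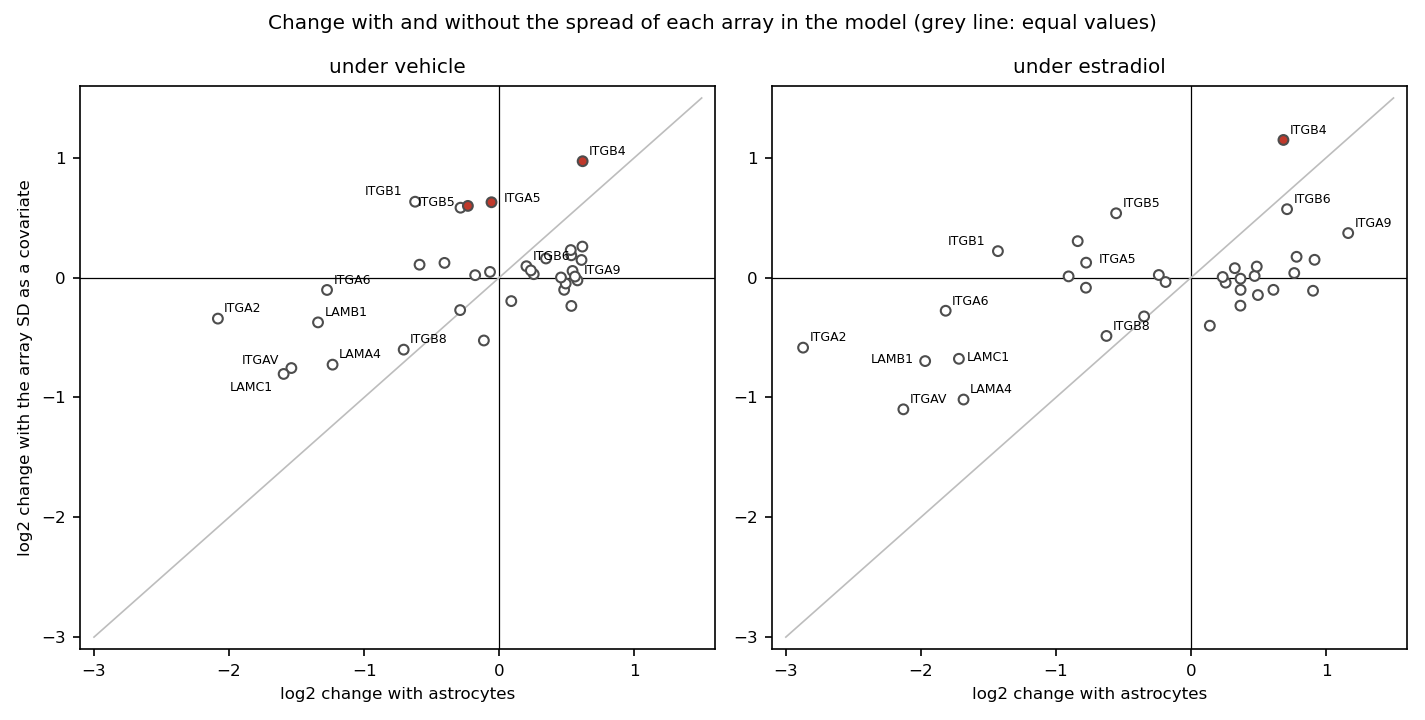
Log2 change with astrocytes of each member when the model holds each array's SD (vertical axis) against the change without it (horizontal axis), under vehicle and under estradiol, with filled points for adjusted p under 0.05 on the vertical axis. Most members lie closer to 0 on the vertical axis, and ITGB4 lies above the line of equal values in both panels, at 0.97 and 1.15.

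Whether groups overlapped was also counted. Under vehicle 11 of the 34 members had no overlap between the arrays with and without astrocytes, 5 higher and 6 lower, beside 41.8% of all genes. Under estradiol it was 20 members, 8 higher and 12 lower, beside 50.9% of all genes. In both treatments together, with 6 arrays against 6, it was 6 members beside 23.6% of all genes: ITGA2, ITGA6, LAMB1 and LAMC1 lower, and ITGB4 and ITGAE higher. With 3 arrays a side, 0.1 is the smallest two-sided p that an exact permutation test allows.

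Genes that act with these receptors were taken as lists. Of 32 integrin adaptors 28 were measured. With astrocytes under estradiol 14.3% of these changed, near the 13.2% of all genes. The list median was −0.33, beside 0.07 for all genes. In the third of genes with the highest mean signal the median was −0.71 and 13.4% fell, and the list was not matched for signal. Of the 28 adaptors 4 fell and none rose, beside 8.15% of all genes that fell. These were LIMS1 (by 1.67, adjusted p = 0.0338), a scaffold that joins integrin-linked kinase to actin, FERMT1 (by 1.30, adjusted p = 0.0371), a kindlin that activates integrins, VCL (by 1.26, adjusted p = 0.0445), the talin-binding vinculin, and TNS3 (by 1.05, adjusted p = 0.0415), a tensin. PTK2, the focal adhesion kinase, had −1.31 (adjusted p = 0.102), and TLN1, a talin, had −0.78 (adjusted p = 0.204). Under vehicle none of the 28 passed, the smallest adjusted p being 0.0763 for FERMT1 (−1.45). In the mean of both treatments 7 fell and 1, SHARPIN, an inhibitor of integrin activation, rose by 0.68 (adjusted p = 0.0110). These are 28.6% of the list, beside 47.5% of all genes.

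Of 36 membrane and matrix partners 32 were measured, and under estradiol 4 fell and 1 rose (15.6% in all, near the 13.2% of all genes), with a median of −0.49. DST, which encodes the hemidesmosome linker dystonin, fell by 2.17 (adjusted p = 0.0332), THBS1, thrombospondin, by 1.88 (adjusted p = 0.0465), TNC, tenascin, a ligand of the receptor of ITGA9, by 1.61 (adjusted p = 0.0368), and NTN4, a laminin-related netrin, by 0.96 (adjusted p = 0.0451). BCAM, a cell surface receptor for the LAMA5 chain, rose by 0.83 (adjusted p = 0.0430), from a mean of 4.20 to 5.02. CD44, the hyaluronan receptor, had −1.14 (adjusted p = 0.0519). DAG1, the laminin receptor dystroglycan, was not analysed here. Under vehicle none of the 32 passed, and in the mean of both treatments 9 fell and 6 rose, 46.9% in all and near the 47.5% of all genes. In both lists together, no gene passed in a comparison of estradiol with vehicle. How the calls in these lists moved with other settings or with an array left out is not given here.

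The second question is whether estradiol changed these genes, in cells alone or with astrocytes. No member passed in either comparison, nor did any gene (0% of all genes). In cells alone the members' changes ran from −0.19 (ITGA11) to 0.19 (ITGA5), no member had an unadjusted p under 0.05 in limma, and 1 of all genes had. No member's groups were free of overlap there, beside 3.21% of all genes. With astrocytes the changes ran from −0.79 (ITGA2) to 0.49 (ITGB6). ITGB6 was the 1 member with an unadjusted p under 0.05 in limma (adjusted p = 1.00), among 142 genes, and the 1 member whose groups did not overlap, beside 2.18% of all genes. ITGA9 had 0.45 (95% interval −0.27 to 1.18) and ITGA5 −0.53 (−1.31 to 0.26). In replicate 2 of estradiol co-culture ITGA2 was at 3.81, beside 8.15 and 7.20 in replicates 1 and 3. Without that array 20 of the 34 changes with astrocytes turned sign, that of ITGA2 among them. Those of ITGB6, ITGA9 and ITGA5 did not.

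These comparisons were not precise for every member. The 95% interval reached beyond a change of 1 in size for 8 members in cells alone and for 13 with astrocytes. It was widest for ITGA2, from −1.92 to 1.91 in cells alone and from −2.71 to 1.12 with astrocytes. For LAMA5, ITGB2, ITGAE and LAMA2 the intervals were among the narrow ones, for instance −0.45 to 0.34 for LAMA5 in cells alone. With arrays weighted by their fit (arrayWeights) 2 members passed with astrocytes, ITGB6 higher and ITGA2B lower, where 6.67% of all genes passed.

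**Figure D5:**
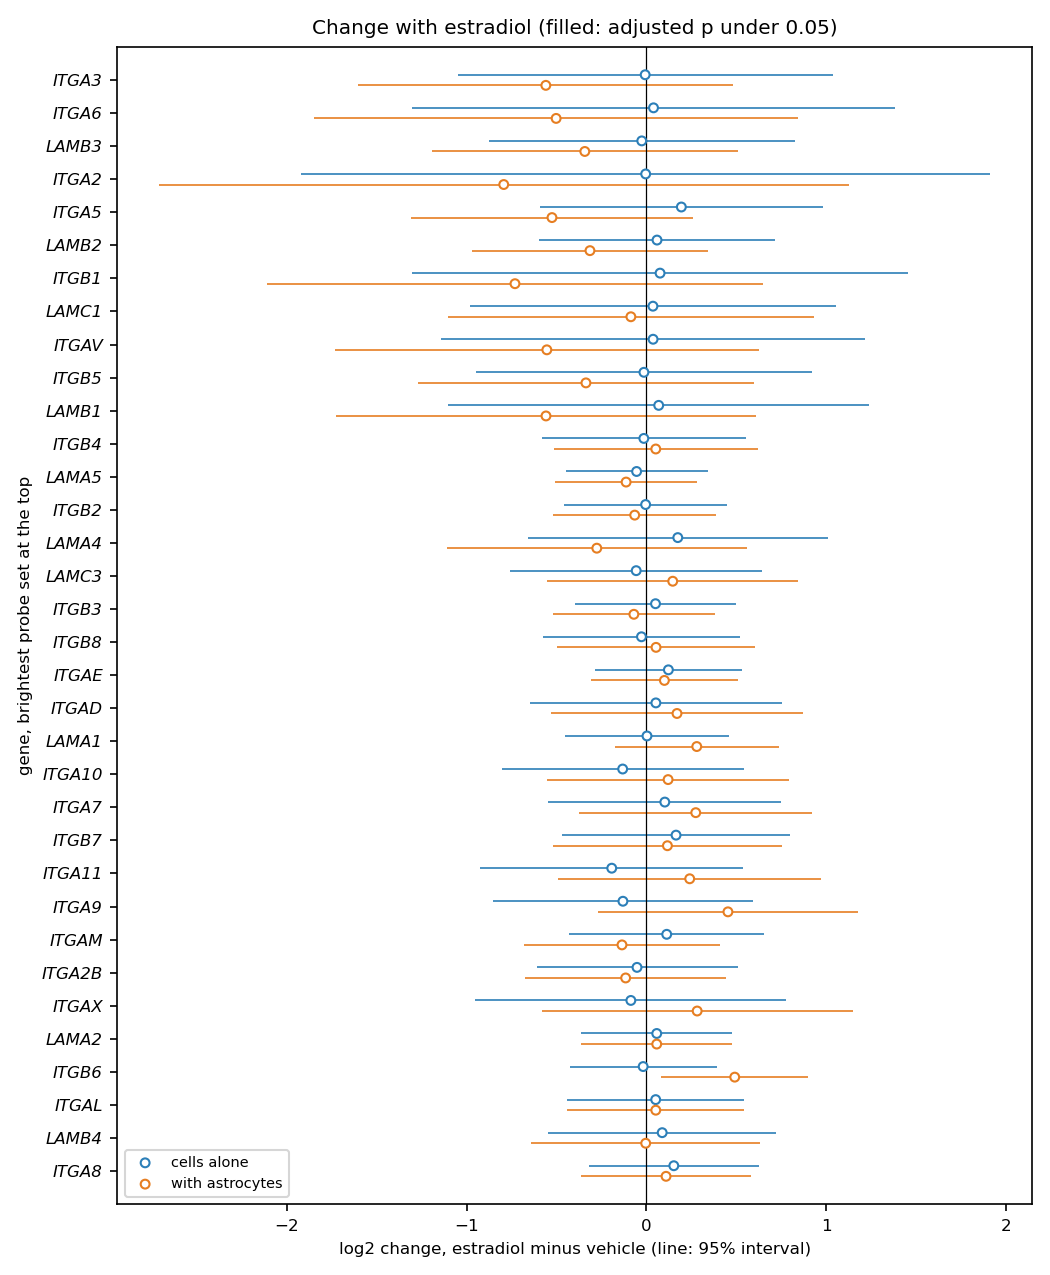
Each member's log2 change with estradiol in cells alone (blue) and with astrocytes (orange), with 95% intervals from limma, ordered by mean signal. No point is filled, since none had an adjusted p under 0.05, and the interval of ITGB6 with astrocytes (0.08 to 0.90) does not reach 0.

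The interaction asks whether the change with astrocytes differed between estradiol and vehicle. No member and no gene passed (0% of all genes), no member had an unadjusted p under 0.05 in limma, and 31 of all genes had. The largest difference in size was −0.81 for ITGB1 (SE 0.89, 95% interval −2.76 to 1.14), followed by −0.79 for ITGA2 (SE 1.24) and −0.72 for ITGA5 (SE 0.51). For the 4 members that fell under estradiol it was −0.59 (ITGAV), −0.45 (LAMA4), −0.63 (LAMB1) and −0.12 (LAMC1), each smaller than its SE. Without replicate 2 of estradiol co-culture 13 of the 34 differences turned sign, those of ITGB1, ITGA2 and LAMC1 among them, while that of ITGA5 did not. With every array kept, the intervals reached beyond 1 for 21 of 34 members, so that a difference of that size was not excluded for these.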

How the data were processed

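Expression was measured on single-colour Affymetrix Human Gene ST arrays in 12 samples of sorted 231BR cells. The values used are the log2 expression values the authors deposited; RMA and Partek appear in the submitters' processing notes, with no version, role or order. The genome build and any further settings are not given in the sources used here. Of 33297 probe sets, 19181 had 1 gene symbol in the platform's annotation, 2055 had several and 12061 were not named here. For 895 genes with several probe sets the one with the highest mean was used, which left 17958 genes with no filter on low values. Symbols were checked by gene ID against RefSeq, which held 19143 of the probe sets, and none changed.

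Tests used limma 3.58.1 in R 4.3.3 (lmFit on all 12 arrays with a mean for each group, then contrasts.fit and eBayes, two-sided, Benjamini-Hochberg adjustment over all genes, threshold 0.05). The code was tested on simulated data that drew genes independently and gave every array like spread. The measured arrays differ in spread, so that test does not bear on the calls here. Nothing in the labels tells separate cultures from repeats of a culture, so p-values measure only the spread between these samples, which may be technical; arrays have no read depth, and their number limits the precision. Signals of different probe sets are not compared as transcript levels. Values in every array are given for members past the threshold, the 10 with the highest mean and the 3 with the smallest p in each comparison, and for ITGB4 and ITGB8, which were added after their values were seen. The members and lists were chosen with earlier results of these data known. Same-numbered arrays of the astrocyte groups deviated from their group means together (r = 0.789, 0.756 and 0.214), a pairing taken from the values, since no label says what a number marks. Alternatives covered normalization, the array SD as a covariate, low values, probe set choice, variance models, the replicate block, thresholds and each array left out; the mean of both treatments was added after the data were seen.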

Additional observations from a re-analysis of the deposited data

How the results depend on the processing

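The number of members called by adjusted p in limma moved with the settings listed in this section. The count under vehicle stayed at 0 after quantile normalization and after median centring. Under vehicle (0 called) the count was 3 with the array SD as covariate, 26 with arrayWeights, 2 with the compared groups only, 1 without replicate 2 of both astrocyte groups, 1 at a threshold of 0.10, and 0 to 11 with an array left out. Under estradiol (6) it was 1 after quantile normalization, 1 with the array SD, 29 with arrayWeights, 0 without moderation, 0 with the compared groups only, 3 without replicate 2 of both astrocyte groups, 15 at 0.10, 0 at 0.01, and 0 to 20 with an array left out. In the mean of both treatments (18) it was 8 after quantile normalization, 3 with the array SD, 9 among genes above the median level, 32 with arrayWeights, 4 at 0.01, and 9 to 24 with an array left out. Estradiol against vehicle in co-culture gave 2 with arrayWeights (6.67% of all genes passed), whose weights stopped short of convergence. Of all genes, arrayWeights called 69.3% under vehicle, 82.3% under estradiol and 83.5% in the mean of both treatments. In the same order quantile normalization called 0.078%, 2.95% and 32.3% of all genes, and the array SD 6.49%, 2.61% and 14.4%. The causes were not tested.

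With the replicate block the count was 4 under vehicle (ITGAV, ITGB8, LAMA4 and LAMC1), 16 under estradiol and 22 in the mean of both treatments. Of all genes 14.4%, 37.3% and 57.2% passed with that block, in the same order. Same-numbered arrays with and without astrocytes did not all deviate together (r from −0.436 to 0.582 under vehicle and −0.016 to 0.538 under estradiol), so there they share only a number. The pairing changed no call between the astrocyte groups.

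Among the members with values in every array, signs turned as follows in the astrocyte comparisons. With the array SD as covariate the changes under vehicle became −0.10 (ITGA11), 0.58 (ITGA3), 0.63 (ITGA5), −0.022 (ITGA9), 0.63 (ITGB1), 0.60 (ITGB5), 0.12 (LAMB2) and 0.11 (LAMB3). Under estradiol they became 0.30 (ITGA3), 0.13 (ITGA5), 0.22 (ITGB1), 0.54 (ITGB5), −0.10 (ITGAM) and 0.011 (LAMB3), and in the mean of both treatments 0.44 (ITGA3), 0.38 (ITGA5), 0.43 (ITGB1), 0.57 (ITGB5), 0.020 (LAMB2) and 0.060 (LAMB3). After quantile normalization they were 0.39 (ITGA5), 0.23 (ITGB5), −0.11 (ITGB6) and 0.067 (LAMB2) under vehicle, and 0.065 (ITGA5) and 0.039 (ITGB5) in the mean of both treatments. Median centring gave ITGA5 0.011 under vehicle. Without replicate 2 of both astrocyte groups ITGA5 was 0.12 under vehicle, and ITGB5 was 0.039 under estradiol and 0.017 in the mean of both treatments. ITGA11 was 0.059 with estradiol alone under arrayWeights. With an array left out, ITGA5 ran from −0.18 to 0.12 under vehicle, ITGB5 from −0.99 to 0.039 under estradiol, and ITGA11 from −0.38 to 0.10 with estradiol alone. Over all 34 members, the array SD turned the sign of 13 changes under vehicle, 14 under estradiol and 15 in the mean of both treatments, and quantile normalization 9, 5 and 7. Members not yet listed had in that mean, with the array SD, −0.46 (ITGA10), −0.075 (ITGAD), −0.0061 (ITGAL), −0.17 (ITGAX), 0.022 (ITGB2), 0.0059 (ITGB3), −0.044 (ITGB7), −0.10 (LAMA1) and −0.12 (LAMB4). After quantile normalization they had −0.17 (ITGA10), −0.100 (ITGAL), 0.26 (ITGB2), −0.11 (LAMA2) and 0.21 (LAMA5). Turns in other settings are not listed for members without values in every array. Leaving out replicate 2 of estradiol co-culture turned 20 of the 34 signs for estradiol with astrocytes and 13 for the interaction. For estradiol in cells alone, leaving out vehicle alone replicate 3 turned 14. With arrayWeights 13 turned for estradiol in cells alone, 8 for estradiol with astrocytes and 14 for the interaction.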
